A study of Mus musculus with 6 samples.

Results

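The matrix metalloproteinases (MMPs), the ADAMTS proteases and their inhibitors (TIMPs) were followed in mouse lung. The genes were taken by symbol: every row of the deposited table named Mmp, Adamts or Timp with a number, without regard to its values. This gave 46 of 24054 gene rows, of which 23 were Mmp, 19 Adamts and 4 Timp genes. The lungs came from 6 female SCID mice, whose strain lacks mature B and T cells, 3 in each of 2 groups. All 6 mice had received fluorescently labelled extracellular vesicles (EVs, membrane-bound particles that cells release) with CD9, CD63 and CD81, through a tail vein. The EVs were collected from cultured neural progenitors of E15.5 mouse embryos, either wild type (WT EV) or lacking Tsc1 (Tsc1-null EV), a brake on the growth kinase mTORC1. Each mouse then got rat ELT3 cells, a model line for lymphangioleiomyomatosis (LAM), into a vein 48 h after the EVs, and its lungs were collected 72 h after that. Both groups thus carried EVs and ELT3 cells, and the contrast is the Tsc1 genotype of the EV donor cells. Ages were not given in the sources used here. The series was designed to ask how EVs of either kind alter the lung as a site for metastasis. Lungs of mice given neither were not analysed here, and how many EV preparations stand behind a group is not given in the sources used here.

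MMPs are zinc proteases that are made as inactive precursors and cut collagens, elastin, other matrix proteins and cytokines. Some are secreted, and some stay anchored in the cell membrane, where MMP14 works with TIMP2 to activate the precursor of MMP2. ADAMTS proteases are secreted and carry thrombospondin repeats. Several of them cut proteoglycans such as versican and aggrecan, others trim procollagens, and ADAMTS13 cuts von Willebrand factor in blood. TIMPs block the active site of MMPs in a complex of equal parts, and TIMP3, which binds to the matrix, also inhibits several ADAMTS enzymes. MMP activity is also controlled by precursor cleavage and by binding to inhibitors, which transcript levels do not show.

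Of the 23 Mmp genes, 10 lie in a single cluster on chromosome 9 (chr9:7272514-7699585, GRCm38, GENCODE M21), and their promoters looked unlike those of the other members. RefSeq promoter windows (GRCm38.p6, 250 bases before to 50 after the start) were matched by symbol for 32 of the 46 genes, including all 10 of the cluster. The whole window was searched on both strands for TGAGTCA, the site of the transcription factor AP-1, and for GGGCGG, the GC box. It was also searched for TATAAA, the letters of the TATA box, at any position. The AP-1 letters were found in 7 of the 10 cluster genes, in 0 of the 22 others and in 5.95% of all 27025 genes with a window. The TATA letters were found in 9 of 10, in 2 of 22 (Adamts1 and Mmp21) and in 15.7% of all genes. Their place in the cluster varied. Relative to the start, they began at -29 in Mmp10, -28 in Mmp1a and at -26 and -123 in Mmp7. Elsewhere they began at -58 in Mmp20, -49 in Mmp1b, -16 in Mmp13 and -7 in Mmp3. In Mmp8 they were in the reverse orientation at -3, and in Mmp12 they began after the start, at 4. Whether they act as a TATA box was not tested. The GC box showed the opposite layout, in 0 of 10 cluster genes, 18 of 22 others and 38.2% of all genes. No match of one motif overlapped that of another in these genes, and a match describes the sequence only. The 7 AP-1 stretches are shown because they set the cluster apart, 31 bases each, 5′ to 3′ on the gene's own strand, with the AP-1 letters in capitals.
Mmp13 (chr9:7272467-7272497, plus strand): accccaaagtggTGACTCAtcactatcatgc
Mmp12 (chr9:7347318-7347348, plus strand): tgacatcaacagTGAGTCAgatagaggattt
Mmp1b (chr9:7388101-7388131, minus strand): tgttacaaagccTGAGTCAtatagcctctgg
Mmp3 (chr9:7445764-7445794, plus strand): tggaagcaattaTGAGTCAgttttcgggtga
Mmp1a (chr9:7464056-7464086, plus strand): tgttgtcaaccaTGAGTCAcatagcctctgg
Mmp10 (chr9:7502267-7502297, plus strand): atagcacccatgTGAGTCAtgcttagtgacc
Mmp7 (chr9:7692015-7692045, plus strand): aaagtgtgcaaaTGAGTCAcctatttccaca

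In Mmp13 the letters are in the reverse orientation, TGACTCA, and in the other 6 they read TGAGTCA. They lie 35 to 93 bases before the annotated start, nearest in Mmp13 and farthest in Mmp1b. For contrast, the 100 bases before the start are given for Mmp14, Adamts1 and Timp2, to which the ratios below refer, with GC boxes in capitals. Mmp14 has 2 of them back to back, Adamts1 has 2 in this stretch and Timp2 has 1.
Mmp14 (chr14:54431498-54431597, plus strand): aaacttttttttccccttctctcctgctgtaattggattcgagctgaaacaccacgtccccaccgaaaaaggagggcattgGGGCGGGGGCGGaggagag
Adamts1 (chr16:85803114-85803213, minus strand): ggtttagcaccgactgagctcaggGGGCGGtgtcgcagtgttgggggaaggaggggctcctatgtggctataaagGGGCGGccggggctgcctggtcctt
Timp2 (chr11:118355412-118355511, minus strand): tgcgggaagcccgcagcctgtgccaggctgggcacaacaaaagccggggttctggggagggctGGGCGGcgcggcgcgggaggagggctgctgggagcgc

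The libraries held 5101413 to 9358820 reads assigned to genes. Values are TMM-normalized CPM, reads scaled to a common library size, so that 3 reads equal 0.323 to 0.601 CPM depending on the library, and counting error is small for members above 10 CPM. Sftpc, Scgb1a1 and Ager, markers of alveolar type 2, club and alveolar type 1 cells, stood at 13094, 48294 and 1671 or more in every library. Of the 6, replicate 2 of WT EV and replicate 1 of Tsc1-null EV were least like the rest. They were also the shallowest, with 6565182 and 5101413 reads, against 8079325 to 9358820 in the other 4. Their log2 values had a median correlation over genes of 0.963 and 0.942 with those of other libraries, against 0.980 to 0.982 for the remaining 4, and the nuclear RNA Malat1 stood at 15673 and 30060.0 in them, against 1609 to 2819 elsewhere. These are the libraries standing apart in what follows, and results that rest on them are also given without both. Where sets of 3 values stand against each other, replicates 1 to 3 of WT EV come first and replicates 1 to 3 of Tsc1-null EV second. Leaving them out was chosen after the data had been seen, and no batch is named in the labels.

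With values divided by the length of each gene's exons, Timp2 and Timp3 were far above every protease, at 164 ± 3.31 and 133 ± 10.7 CPM per kb in WT EV lungs (mean ± SD, n = 3). Their levels in Tsc1-null EV lungs were 139.9 ± 50.8 and 122 ± 17.0, and the SDs of the 2 genes overlapped. Among the proteases the order of mean level over the 6 libraries began with Mmp2, Mmp15, Mmp14 and Adamts1. Mmp2 stood at 27.1 ± 11.4 with WT EV and 48.2 ± 30.6 with Tsc1-null EV and Mmp15 at 26.1 ± 6.60 and 36.1 ± 1.92, so that their order was within the spread. By the mean over the 6 libraries Timp1 lay between them and Mmp14, with 15.0 ± 5.40 and 16.1 ± 6.85 CPM per kb. Mmp14 was at 11.8 ± 3.30 and 19.1 ± 6.62, so that the order of Timp1 and Mmp14 was within the spread too. These orders also depend on the length used. The longest annotated transcript of Mmp14 has 3238 bases, against 5960 exon bases, and that of Timp1 883 against 888. For Timp3 the lengths are 4722 and 8144, and for Timp2 3709 and 3896. The order by longest transcript is not given here. Timp4 was at 0.918 ± 0.218 and 0.905 ± 0.280. Of the cluster genes, Mmp3 (9.61 ± 0.760 and 13.2 ± 7.89) and Mmp12 (2.40 ± 1.19 and 2.29 ± 0.974) were the only ones above 1 CPM per kb on average.

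At the other end, 5 of the 46 genes had no read in any library: the collagenases Mmp1a and Mmp1b, the enamel protease Mmp20, and Adamts16 and Adamts18. A count of 0 allows up to 3 reads, or 0.601 CPM in the shallowest library. A further 9 genes averaged under 1 CPM and were not tested. They were Mmp7, Mmp10, Mmp16, Mmp21, Mmp24, Mmp25, Mmp27, Adamts6 and Adamts19. Mmp7, a matrilysin of epithelia, and Mmp10, a stromelysin, had 1 read each in a single library. Adamts6 was the highest of the 9, at 0.976, 1.47 and 0.494 CPM with WT EV and 0.802, 0.647 and 0.773 with Tsc1-null EV. This left 32 of 46 genes, against 58.9% of all gene rows, for the test (13 Mmp, 15 Adamts and 4 Timp), of which 19 had a mean of at least 10 CPM. In the cluster, 6 of the 10 genes were at 0 or under a mean of 1, and 4 were tested. Mmp1a is annotated as a polymorphic pseudogene.

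None of the 32 genes passed when the 3 Tsc1-null EV lungs were set against the 3 WT EV lungs (limma on log2(value + 1), Benjamini-Hochberg adjustment over all 14159 genes tested, adjusted p under 0.05), where the share called among all genes was 0%. On the unadjusted scale 2 of 32 were under 0.05, Mmp15 and Adamts13, against 6.57% of all genes. In Mmp15 and Adamts1 each Tsc1-null EV lung exceeded each WT EV lung (6.86% of all genes), and 0 of 32 genes showed the reverse (6.22% of all genes). That made 2 of 32 with no overlap in either direction, against 13.1% of all genes, so neither count exceeded the background. The log2 fold was above 0 in 16 genes and below 0 in 16, with a median of 0.02, against -0.02 over all genes, of which 47.3% were above 0. edgeR on the recovered reads called 0 of 31 members and 0% of all genes, with 4 of 31 against 6.93% under an unadjusted 0.05. DESeq2 called 0 of 41 members and 0.0596% of all genes, with 5 of 41 against 5.22% under an unadjusted 0.05. Without the 2 libraries that stood apart, 2 of 32 passed, Mmp2 and Adamts13, where 0.164% of all genes did, and 13 of 32 were under an unadjusted 0.05, against 10.9%. In the fit that kept all 6 libraries with a term for these, 0 of 32 members and 0.00706% of all genes passed. In that comparison of 2 against 2 lungs, 24 of 32 log2 folds were above 0 (49.6% of all genes) and the median was 0.34, against 0.00 over all genes. The groups of 2 did not overlap in 21 of 32 genes, against 42.3% of all genes. In 16 genes both Tsc1-null EV lungs then lay above both WT EV lungs and in 5 they lay below, against 20.8% and 21.5% of all genes. Sample weights were 0.393 for WT EV replicate 2 and 0.213 for Tsc1-null EV replicate 1. They were 0.933 for WT EV replicate 1 and 0.776 for Tsc1-null EV replicate 3. The highest were 4.19 for WT EV replicate 3 and 3.95 for Tsc1-null EV replicate 2, so that 1 lung per group carried most of the weight. With these weights 7 of 32 passed, 6 higher and 1 lower, against 7.42% of all genes.

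**Figure D1:**
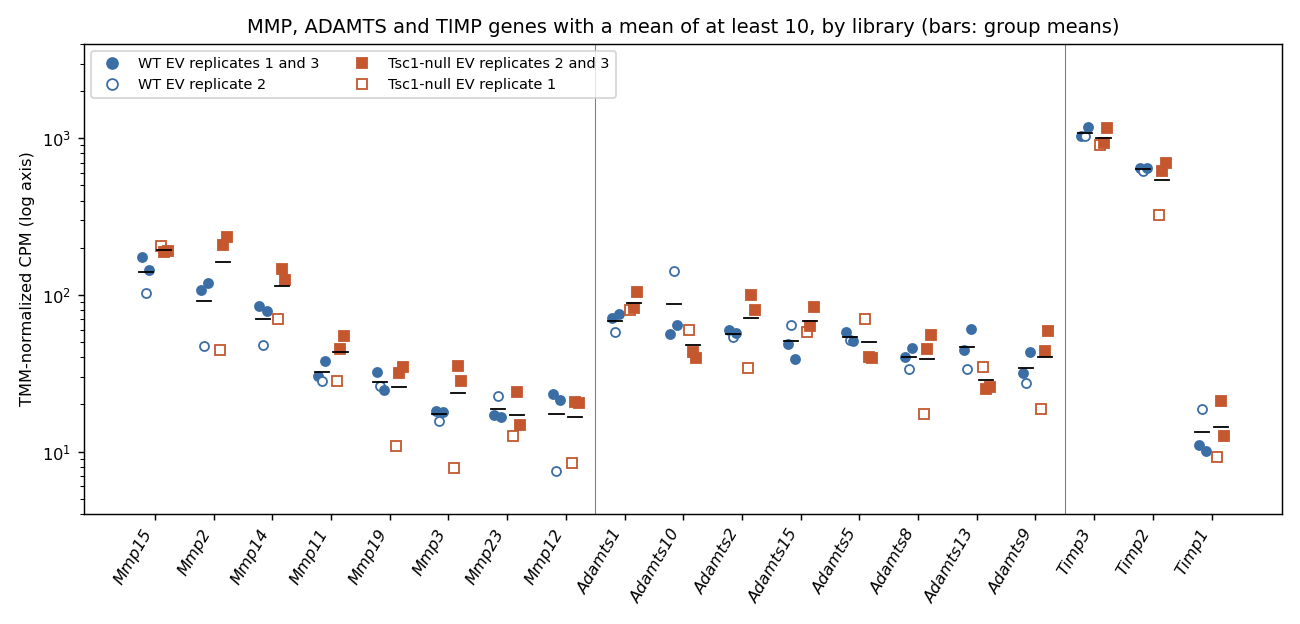
Level of the 19 genes with a mean of at least 10, in TMM-normalized CPM on a log axis, for each of the 6 lungs; bars are group means, and open symbols are replicate 2 of WT EV and replicate 1 of Tsc1-null EV. The groups separate fully in Mmp15 and Adamts1, and Mmp2 splits each group, with 1 low lung in both.

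The gelatinases cut denatured collagen and basement membrane. Mmp2, made mainly by mesenchymal cells, was at 107, 47.5 and 119.7 CPM in WT EV replicates 1 to 3 and at 44.3, 208 and 235 in Tsc1-null EV replicates 1 to 3 (chr8:92827291-92853420). The low values were those of the 2 libraries standing apart, and the other 2 Tsc1-null EV lungs were above every WT EV lung. Its log2 fold 0.61 ± 0.61 (adjusted p = 0.855) became 0.96 ± 0.14 without those libraries (limma adjusted p = 0.03). That call was lost with all 6 libraries and a term for those (0.61, limma adjusted p = 0.453), and leaving out 1 library at a time gave 0.18 to 1.37. The fibroblast collagens Col1a2 (0.94 ± 0.15, limma adjusted p = 0.0456) and Col3a1 (0.95 ± 0.16, limma adjusted p = 0.0497) were called in the same comparison of 2 against 2. Only 4 of the 8 fibroblast markers were above 0 there, with a median log2 fold of 0.05. Tcf21 was at -0.41 ± 0.15 and Dcn at -0.30 ± 0.15. The part of fibroblast RNA in the Mmp2 values was not tested. Mmp9, the gelatinase of neutrophils and macrophages, was at 9.15, 9.26 and 7.53 against 5.01, 10.0 and 6.74, with overlapping groups. The 7 neutrophil markers in the table, none at 0 in every library, summed to 47.9 to 87.3 CPM with WT EV and 70.0 to 90.2 with Tsc1-null EV. The highest sum of each group was that of its library standing apart. Cxcr2, the highest of the markers by its mean, weighed most there, at 15.7, 39.1 and 13.6 against 45.5, 12.4 and 14.3. The part of neutrophils in the Mmp9 values was not tested.

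The membrane-anchored MMPs act at the cell surface. They were listed here as Mmp14, Mmp15, Mmp16, Mmp17, Mmp24 and Mmp25, and all 3 of these that were tested had a log2 fold above 0. Mmp23, which can also be membrane-anchored, was not in this list, and its log2 fold was below 0, at -0.16 ± 0.25. Mmp15, anchored by a transmembrane segment, was at 174, 103 and 144 CPM with WT EV and 207, 188 and 190.2 with Tsc1-null EV (chr8:95352268-95375080). The groups did not overlap, and the means were 141 ± 35.6 and 195 ± 10.3 (log2 fold 0.50 ± 0.20, adjusted p = 0.721). Leaving out 1 library at a time gave 0.29, without WT EV replicate 2, to 0.67. Without both libraries standing apart the log2 fold was 0.25 ± 0.14 (limma adjusted p = 0.554). Mmp14, the surface collagenase that activates pro-MMP2, was at 84.8, 48.1 and 78.6 against 69.8, 146 and 125 (chr14:54431612-54445364). Tsc1-null EV replicate 1 was among the WT EV values, and the other 2 lay above them all (log2 fold 0.66 ± 0.31, adjusted p = 0.721). Without both libraries the log2 fold was 0.72 ± 0.14 (limma adjusted p = 0.0849), and without WT EV replicate 2 alone it was 0.41. Mmp17, held by a lipid anchor, was at 3.05, 2.35 and 3.82 against 2.00, 5.50 and 3.87 with overlapping groups, and Mmp16, Mmp24 and Mmp25 had at most 10 reads in any library.

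Among the stromelysins, Mmp11 and Mmp3 were tested. Mmp11, which is activated by furin inside the cell, was at 30.4, 28.1 and 38.1 CPM with WT EV and 28.3, 45.4 and 55.0 with Tsc1-null EV (log2 fold 0.36 ± 0.25, adjusted p = 0.774; 0.54 ± 0.17 without both libraries standing apart). Mmp3, an activator of other MMPs, was at 18.2, 15.7 and 18.0 against 7.82, 35.2 and 28.2, so that the Tsc1-null EV group held both the lowest and the 2 highest lungs. Its log2 fold 0.20 ± 0.46 became 0.77 ± 0.17 without the 2 libraries standing apart (limma adjusted p = 0.115), and it was -0.19 without Tsc1-null EV replicate 2. Mmp3 and Mmp10 share 8.39% of the 50-base words of Mmp3, and Mmp10 had a single read.

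Mmp12, the elastase of macrophages, was at 23.3, 7.496 and 21.2 CPM with WT EV and 8.42, 20.7 and 20.5 with Tsc1-null EV. Replicate 2 of WT EV and replicate 1 of Tsc1-null EV were far below the other 4, which lay within a narrow range, and the log2 fold was -0.02 ± 0.46 (adjusted p = 0.997), or -0.10 ± 0.16 without both. The 8 alveolar macrophage markers summed to 183 to 329.8 CPM with WT EV and 178 to 290.1 with Tsc1-null EV with none at 0. The sum was lowest in the same 2 libraries, but 0 of the 8 markers had both of them as its 2 lowest, and without Fabp4 the lowest sum was that of WT EV replicate 3, at 152. Of the 8, Fabp4, which adipocytes and capillaries also express, was at 87.1, 19.5 and 178 against 14.6, 67.3 and 19.001, named after its values were seen. Of the 8 monocyte and interstitial macrophage markers, 6 had the same libraries as their 2 lowest, and none was at 0. Their sums were 254 and 289.9 in those libraries, against 337 to 465 in the other 4. In bulk lung, fewer cells of a type and less RNA per cell cannot be told apart, and the part of macrophage numbers in the Mmp12 values was not tested. The collagenases Mmp8, stored by neutrophils, and Mmp13 were at 0.601 to 3.09 and 0.735 to 3.05 CPM, with overlapping groups.

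The remaining MMPs were at moderate or low levels and overlapped between the groups. Mmp19, a broadly acting secreted MMP, was at 32.3, 26.3 and 24.8 against 10.8, 31.6 and 34.7, and its single low lung was Tsc1-null EV replicate 1. Its log2 fold -0.26 ± 0.38 turned to 0.22 ± 0.17 without the 2 libraries standing apart. Of its exon bases 28.3% overlap genes on the opposite strand, among them Tmem198b, and the use of strand is not given, so its reads cannot be assigned with certainty. Mmp23 was at 17.1, 22.5 and 16.7 against 12.6, 24.0 and 14.8 (log2 fold -0.16 ± 0.25, adjusted p = 0.926; 0.16 ± 0.21 without both libraries). Mmp28, an MMP of epithelia, was at 3.90, 7.05 and 6.05 against 2.00, 3.45 and 8.62.

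**Figure D2:**
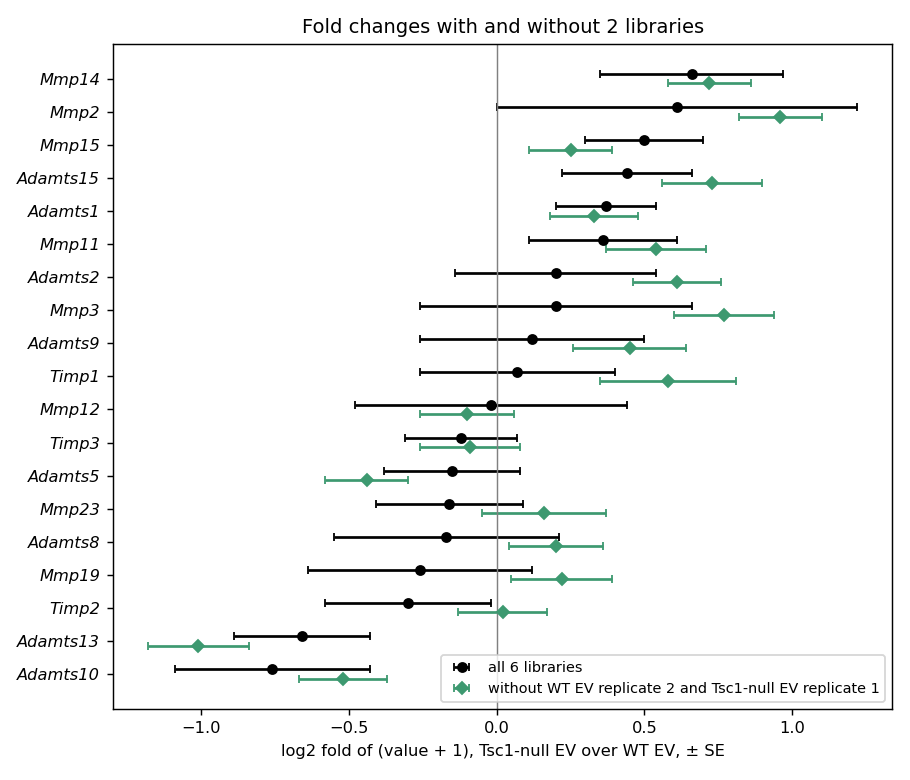
Log2 fold of value + 1 with its SE for the same 19 genes, Tsc1-null EV over WT EV, from limma on all 6 libraries (circles) and without replicate 2 of WT EV and replicate 1 of Tsc1-null EV (diamonds). With all 6 libraries, Mmp14, Mmp2 and Mmp15 lie highest and Adamts13 and Adamts10 lowest. Without the 2 libraries, Mmp2, Mmp3 and Adamts15 lie highest, at 0.96, 0.77 and 0.73, and Mmp15 is at 0.25. Mmp2 moves from 0.61 to 0.96 and Timp2 from -0.30 to 0.02.

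Among the ADAMTS proteoglycanases the highest per kb was Adamts1, which cuts versican and aggrecan. It was at 71.5, 58.3 and 75.8 CPM with WT EV and 79.6, 82.9 and 104 with Tsc1-null EV (chr16:85793827-85803113). Every Tsc1-null EV lung was above every WT EV lung, with means of 68.5 ± 9.07 and 88.7 ± 13.0 (log2 fold 0.37 ± 0.17, adjusted p = 0.721). The log2 fold was 0.33 ± 0.15 without the 2 libraries standing apart (limma adjusted p = 0.453) and 0.25 to 0.44 with any 1 library left out. Its neighbour Adamts5, an aggrecanase (chr16:85856173-85901828), was at 58.1, 51.6 and 51.1 against 69.8, 40.4 and 39.3, with Tsc1-null EV replicate 1 highest and the other 2 of its group below all WT EV lungs. Its log2 fold -0.15 ± 0.23 was -0.44 ± 0.14 without both libraries (limma adjusted p = 0.297). Adamts4, the other main aggrecanase, was near the detection limit, at 1.46, 0.294 and 0.740 against 3.21, 2.80 and 0.884.

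Adamts15 and Adamts8 lie next to each other on chromosome 9 (chr9:30899155-30922452 and chr9:30942562-30963838), apart from the Mmp cluster. Adamts15 was at 48.8, 63.9 and 39.1 against 57.9, 63.5 and 84.3, with WT EV replicate 2 above 2 of the 3 Tsc1-null EV lungs (log2 fold 0.44 ± 0.22, adjusted p = 0.721; 0.73 ± 0.17 without both libraries). Adamts8 was at 40.4, 33.7 and 46.1 against 17.2, 45.0 and 55.1, and Adamts9, the largest of the group by exon length, at 31.7, 27.5 and 43.2 against 18.6, 43.9 and 58.8. In both genes Tsc1-null EV replicate 1 was the lowest and Tsc1-null EV replicate 3 the highest lung, so that this group spanned all WT EV values. Adamts8 had a log2 fold -0.17 ± 0.38 (adjusted p = 0.948; 0.20 ± 0.16 without both libraries) and Adamts9 a log2 fold 0.12 ± 0.38 (adjusted p = 0.968; 0.45 ± 0.19). The exons of both overlap those of other genes, for Adamts8 over 10.6% of its bases. Adamts20 was at 0.976, 2.79 and 0.987 against 7.42, 2.05 and 1.44, its high value being that of Tsc1-null EV replicate 1. Of the 7 proteoglycanases 5 had a log2 fold above 0, 0 passed, and the median was 0.37.

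Adamts2, the main procollagen N-propeptidase, was at 59.8, 53.5 and 56.8 CPM with WT EV and 34.3, 99.5 and 80.4 with Tsc1-null EV. The WT EV values were close together, and the Tsc1-null EV group held the lowest and the 2 highest lungs (log2 fold 0.20 ± 0.34, adjusted p = 0.936). Without the 2 libraries standing apart the log2 fold was 0.61 ± 0.15 (limma adjusted p = 0.169), and without Tsc1-null EV replicate 2 it was -0.10. Adamts3, which also processes the lymphatic growth factor VEGF-C, was at 2.32, 2.50 and 0.864 against 0.802, 1.73 and 3.31, and Adamts14 at 2.44, 4.41 and 1.73 against 3.61, 2.80 and 4.31, with overlapping groups. Adamts7 and Adamts12, which bind the cartilage protein COMP, were at 2.20, 3.97 and 3.33 against 1.203, 4.42 and 4.31 and at 0.122, 0.588 and 0.864 against 0.802, 3.67 and 1.22.

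The lowest log2 folds of the 19 genes were those of Adamts10 and Adamts13. Adamts13, the protease of von Willebrand factor (chr2:26973416-27009628), was at 44.6, 33.7 and 61.0 CPM with WT EV and 34.7, 25.2 and 25.7 with Tsc1-null EV. Tsc1-null EV replicates 2 and 3 were below all WT EV lungs, and replicate 1 was just above WT EV replicate 2. The means were 46.4 ± 13.7 and 28.6 ± 5.31 (log2 fold -0.66 ± 0.23, adjusted p = 0.721). Without the 2 libraries standing apart the log2 fold was -1.01 ± 0.17 (limma adjusted p = 0.0478). With all 6 libraries and a term for those the call was lost (-0.66, limma adjusted p = 0.453). Of the 50-base words of Adamts13, 3.61% also occur in another gene. Its substrate gene Vwf was at 271, 254 and 329 against 269.8, 329 and 337, with overlapping groups. Adamts10, which binds fibrillin microfibrils (chr17:33524204-33553782), was at 56.0, 143 and 64.0 against 60.1, 42.9 and 39.8. WT EV replicate 2 alone stood out, at 143, and the other 5 lungs were within 39.8 to 64.0 (log2 fold -0.76 ± 0.33, adjusted p = 0.721). Without WT EV replicate 2 the log2 fold was -0.35. Adamts17, of the same branch, was at 2.81, 3.09 and 2.22 against 1.80, 3.02 and 3.98.

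Among the inhibitors, Timp3, which stays bound to the matrix, was at 1029, 1035 and 1183 CPM with WT EV and 905, 930.2 and 1156 with Tsc1-null EV (log2 fold -0.12 ± 0.19, adjusted p = 0.919), with overlapping groups. It lies within Syn3, which is on the opposite strand and overlaps 21.3% of its exon bases. Timp2 was at 643, 623 and 647 against 322, 614 and 699. The 3 WT EV lungs and Tsc1-null EV replicates 2 and 3 were within 614 to 699, and Tsc1-null EV replicate 1 alone was far lower. Its log2 fold -0.30 ± 0.28 was 0.02 ± 0.15 without the 2 libraries standing apart. Timp1, the inducible inhibitor, was at 10.98, 18.8 and 10.1 against 9.22, 21.0 and 12.6 (log2 fold 0.07 ± 0.33; 0.58 ± 0.23 without both libraries, limma adjusted p = 0.371). Timp4 was at 5.85, 3.97 and 6.42 against 5.01, 7.12 and 3.87. No TIMP was higher or lower in all 3 lungs of a group.

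The balance of proteases and inhibitors was read as the sum of each family per kb of exon length, as a description with no test. The MMP sum was 126, 84.4 and 122 CPM per kb in WT EV replicates 1 to 3 and 90.6, 185 and 187 in Tsc1-null EV replicates 1 to 3. The TIMP sum was 305, 309 and 324 against 205, 297 and 336. As a share of the TIMP sum, the MMP sum was 41.2, 27.3 and 37.8% with WT EV and 44.2, 62.4 and 55.8% in Tsc1-null EV lungs. The log2 ratio was -1.28, -1.87 and -1.40 against -1.18, -0.68 and -0.84, so that all 3 Tsc1-null EV lungs lay above all 3 WT EV lungs. The nearest lungs of the groups were 0.10 apart, which is less than the SD within a group (0.31 and 0.25), and the difference of the means was 0.62. The lungs came to this order in different ways: in Tsc1-null EV replicate 1 the MMP sum was below that of 2 WT EV lungs and the TIMP sum was the lowest of all, while in replicates 2 and 3 the MMP sum was the highest of all. The difference was 0.58 without the 2 libraries standing apart and 0.53 with Timp2 left out of the inhibitors, where the groups overlapped. Mmp2 alone made up 14.5% to 37.2% of the MMP sum.

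The ADAMTS sum overlapped between the groups. It was 58.9, 63.9 and 63.6 CPM per kb with WT EV and 53.0, 62.4 and 69.1 with Tsc1-null EV. Its log2 ratio to the TIMP sum was -2.37, -2.27 and -2.35 against -1.95, -2.25 and -2.28, with a difference of means of 0.17, or 0.09 without the 2 libraries standing apart. With Timp2 left out of the inhibitors the difference was 0.08 and the groups did not overlap. The highest ratio was that of Tsc1-null EV replicate 1, the lung with the lowest TIMP sum, and the next highest was Tsc1-null EV replicate 2.

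**Figure D3:**
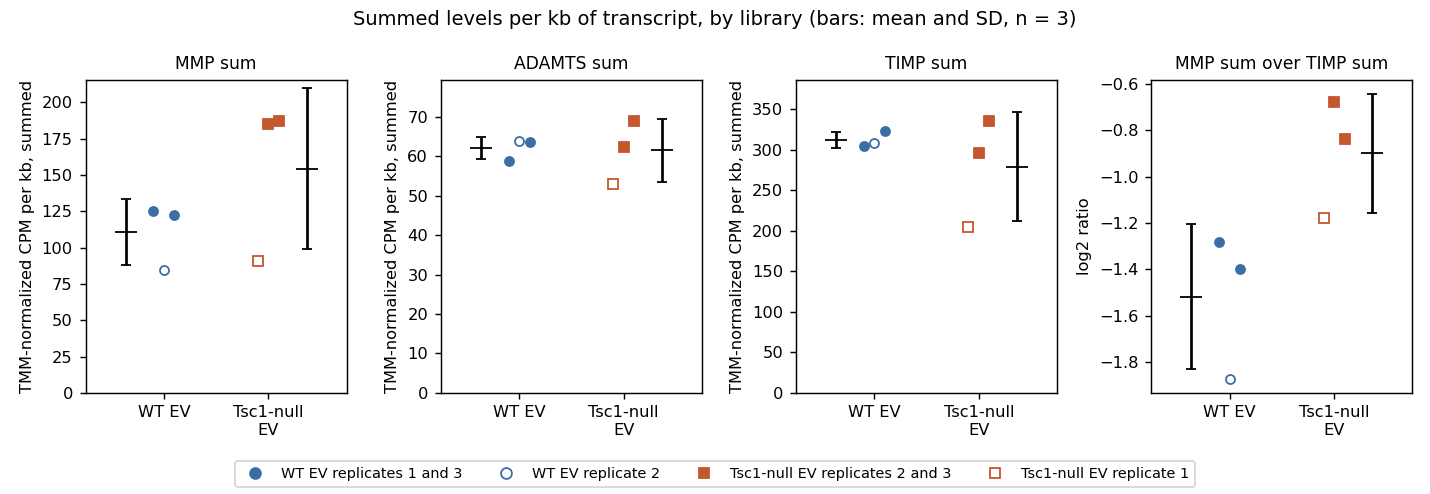
Summed level of the MMP, ADAMTS and TIMP genes per kb of exon length in each lung, and the log2 ratio of the MMP to the TIMP sum; bars are mean and SD of 3 lungs, and open symbols are replicate 2 of WT EV and replicate 1 of Tsc1-null EV. The ratio is -1.87 to -1.28 with WT EV and -1.18 to -0.68 in Tsc1-null EV lungs.

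Ratios of 9 protease and inhibitor pairs known to bind or to act together were compared within each library, as the log2 of value + 1 of the protease minus that of the inhibitor. With 3 lungs against 3 the smallest two-sided exact permutation p is 0.10, so no pair could pass. The log2 ratio of Mmp14 to Timp2 was -2.91, -3.67 and -3.02 with WT EV and -2.19, -2.06 and -2.47 with Tsc1-null EV. The groups did not overlap (difference 0.96, exact permutation p = 0.10, adjusted over the 9 pairs 0.45). That of Adamts1 to Timp3 was -3.83, -4.13 and -3.95 against -3.49, -3.47 and -3.47, again with no overlap and with the Tsc1-null EV lungs almost equal (difference 0.49, exact permutation p = 0.10, adjusted 0.45). That of Mmp2 to Timp2 was -2.58, -3.69 and -2.42 against -2.83, -1.56 and -1.57, where Tsc1-null EV replicate 1 was below 2 WT EV lungs (difference 0.91, exact permutation p = 0.30, adjusted 0.54; with 1 library left out, 0.52, for WT EV replicate 2, to 1.33, for Tsc1-null EV replicate 1). Mmp9 to Timp1 went the other way, with means of -0.52 ± 0.38 and -0.86 ± 0.12 (SD, n = 3; difference -0.34, exact permutation p = 0.30, adjusted 0.54), and its groups overlapped. Adamts5 to Timp3 differed by -0.03, and the groups of the other 4 pairs overlapped as well. Without the 2 libraries standing apart the differences were 0.70 for Mmp14 to Timp2, 0.42 for Adamts1 to Timp3 and 0.94 for Mmp2 to Timp2.

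**Figure D4:**
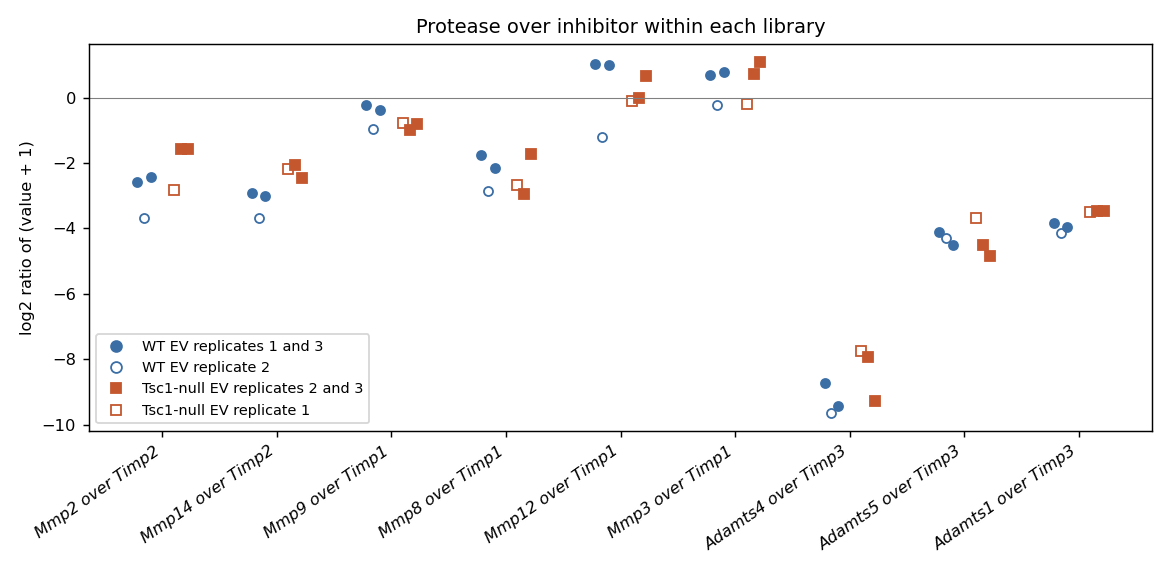
Log2 ratio of value + 1 of 9 proteases to an inhibitor in each of the 6 lungs; open symbols are replicate 2 of WT EV and replicate 1 of Tsc1-null EV. The groups separate in Mmp14 over Timp2 (-3.67 to -2.91 against -2.47 to -2.06) and in Adamts1 over Timp3 (-4.13 to -3.83 against -3.49 to -3.47).

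In 8 lists of other genes of matrix proteolysis, 0 genes passed. No list had more than 1 tested gene whose groups of 3 did not overlap, and 13.1% of all genes did not overlap. The membrane-bound MMP inhibitor Reck was lower in every Tsc1-null EV lung, at 55.0, 53.6 and 49.0 CPM with WT EV and 36.9, 35.7 and 41.1 (log2 fold -0.46 ± 0.14, adjusted p = 0.721). Its log2 fold was -0.43 ± 0.15 without both libraries standing apart. The 4 proprotein convertases, which cut the precursors of membrane-anchored MMPs and of ADAMTS enzymes, had 3 log2 folds above 0. Pcsk6 was higher in all 3, at 24.6, 19.4 and 21.2 against 32.7, 28.7 and 25.9 (log2 fold 0.40 ± 0.17, adjusted p = 0.721), while Furin was at 74.8, 68.1 and 68.6 against 53.5, 80.0 and 95.6. The log2 fold of Pcsk6 was 0.24 ± 0.16 without both libraries standing apart. Of the 8 substrate genes tested 7 were above 0, with a median of 0.38. Vcan, the versican cut by ADAMTS1, was higher in all 3, at 11.3, 3.82 and 13.2 against 13.8, 18.7 and 13.8 (log2 fold 0.78 ± 0.38, adjusted p = 0.721). Its log2 fold was 0.37 ± 0.20 without both libraries (limma adjusted p = 0.537). Elastin, Eln, was at 272, 244 and 270.2 against 203, 652 and 415 with overlapping groups.

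The ADAM sheddases had 5 of 9 log2 folds above 0, and Adam28 was higher in every Tsc1-null EV lung, at 20.6, 20.1 and 18.0 against 47.1, 24.6 and 21.3. Its log2 fold was 0.55 ± 0.28, and 0.24 ± 0.17 without both libraries standing apart. Of the 6 ADAMTS-like proteins, which lack the protease domain, 5 were below 0, and Adamtsl5 was at 30.5, 44.1 and 32.3 against 25.7, 23.8 and 30.5. Its groups met at the same value to within less than 1 read. The plasminogen system, whose plasmin activates MMP precursors, had 1 of 5 above 0. Its receptor gene Plaur was at 61.8, 49.5 and 60.3 against 26.9, 57.7 and 57.7, and Plg was at 0 in every library. The procollagen C-proteinases and their enhancers had 1 of 4 above 0, with Pcolce at 151, 161 and 177 against 62.7, 185 and 219. The leukocyte serine proteases had 2 of 7 tested, both below 0, and the neutrophil elastase gene Elane was at 0 in every library. Of the other MMP regulators 6 of 8 were above 0, among them Cd44, a surface anchor of MMP9, at 145, 101 and 94.5 against 167, 143 and 129.

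In several proteases the 2 libraries standing apart were the lowest of the 6. Replicate 2 of WT EV and replicate 1 of Tsc1-null EV were the 2 lowest lungs in 9 of the 32 tested genes, Mmp2, Mmp3, Mmp11, Mmp12, Mmp14, Mmp17, Adamts2, Adamts8 and Adamts9, and in 14.3% of all genes. They were the 2 highest in 1 of 32, Adamts20, and in 12.4% of all genes. The same libraries were the 2 lowest in 6 of 8 monocyte and interstitial macrophage markers, 5 of 6 alveolar type 1 markers, 4 of 4 tested adipocyte markers, 4 of 7 pericyte, 4 of 8 endothelial and 4 of 8 fibroblast markers. They were so in 2 of 6 smooth muscle, 2 of 5 heart muscle and 1 of 6 alveolar type 2 markers. Among the tested alveolar macrophage, neutrophil, ciliated, club, mesothelial, cartilage and mast cell markers the count was 0. The 8 fibroblast markers, none at 0, summed to 3992 to 4744 CPM with WT EV and 2212 to 6087 with Tsc1-null EV. Col3a1, a fibrillar collagen chain, was at 601, 266 and 593 against 417, 1299.7 and 1021, while Pdgfra, a receptor that marks lung fibroblasts, was at 157, 165 and 192 against 79.0, 147 and 190.2. The 5 mesothelial markers summed to 364 to 988 and 53.3 to 403, with Tsc1-null EV replicate 1 lowest and WT EV replicate 2 highest, and the 8 endothelial markers to 2796 to 3715 and 1845 to 3487. The part of these cell types in the protease values was not tested. Reads from the injected rat cells would be counted together with those of the mouse, and their share was not tested either.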

How the data were processed

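RNA of 6 mouse lungs was sequenced as paired-end reads, per the labels' protocols. The authors deposited a single table of values per gene and library, a TMM-normalized signal on a linear scale by its name, taken here as TMM-normalized CPM. The submitters' processing notes list Bowtie2 2.1.0, RSEM 1.2.15, edgeR and mm10 but no roles; for annotation, filters and strand, the answer is not given in the sources used here. Within 0.001, 100% of values were whole multiples of 1 step per column, so whole reads were recovered for edgeR and DESeq2.

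Groups were taken from the treatment label. Each library is taken as 1 mouse; p-values measure the spread between these samples. Genes with a mean of at least 1 were compared with limma 3.58.1 (R 4.3.3; intensity trend, two-sided). Other settings tried were pseudocounts of 0.5 and 0.1, no low-value filter, a mean of at least 5, a common median, quantile normalization, no trend, sample weights, edgeR 4.0.16, DESeq2 1.42.0 and each replicate left out; leaving out 2 libraries, a term for them and another length were added after seeing the data. On simulated data for this comparison (14159 genes, 200 changed) limma called 23% of the genes given a log2 change of 1 and 87% of the genes given 2. Of its calls 7 were false. The simulated libraries varied gene by gene, so none stood apart over many genes as in the real data. Every member could be named; the 19 with a mean of at least 10 are given in full with folds. From the other lists, up to 4 genes with the smallest unadjusted p and the highest one could be named. Vwf, Pdgfra, Fabp4, Plg and Elane are outside this rule and were chosen after their values were seen. Members, lists, pairs and tests were chosen with earlier results of these data known. Exon lengths, gene positions and shared 50-base words came from GENCODE M21 (GRCm38, the build mm10), with all 46 genes matched by symbol.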

Additional observations from a re-analysis of the deposited data

How the results depend on the processing

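No paired analysis was possible because the labels number the 6 mice consecutively, with no number shared between the groups. Over all genes, the count of calls was 0 in limma and 1050 with sample weights (583 higher, 467 lower), 11 in DESeq2, 23 without both libraries that stood apart, 1 with a term for them and 0 to 2 with 1 library left out. The sample weights lay mostly on 1 lung per group. Of the members, 7 were called with sample weights (Adamts12, Adamts15, Adamts2, Mmp14, Mmp3 and Timp1 higher, Adamts13 lower), 2 without both libraries, 0 of 32 with a term for them (Mmp2 and Adamts13 both lost), and 0 with any 1 library left out. The number of members whose groups did not overlap was 2 of 32, 21 without both libraries and 3 to 14 with 1 left out, 14 being without Tsc1-null EV replicate 1, where 29.1% of all genes did not overlap, and 3 without WT EV replicate 3, where 18.8% did not. The MMP to TIMP difference was 0.44 to 0.76 and the ADAMTS to TIMP difference 0.06 to 0.23 with 1 library left out. Of the 342 other values of the 19 genes, 319 kept the sign of the log2 fold and 23 did not. In 10 genes it was kept throughout. The low-value filters, the fit with no trend and the term for both libraries could not change a log2 fold. Their values were thus bound to keep the sign. With sample weights the log2 fold was 0.01 for Adamts8, 0.23 for Mmp19 and 0.33 for Mmp23, and without both libraries 0.20, 0.22 and 0.16, and 0.02 for Timp2. With 1 library left out it was -0.10 to 0.65 for Adamts2, -0.49 to 0.32 for Adamts8, -0.22 to 0.58 for Adamts9, -0.50 to 0.38 for Mmp12, -0.54 to 0.25 for Mmp19, -0.42 to 0.02 for Mmp23, -0.19 to 0.83 for Mmp3, -0.23 to 0.33 for Timp1 and -0.52 to 0.04 for Timp2. The pair differences of 4 pairs changed sign likewise: -0.56 to 0.05 for Mmp8 over Timp1, -0.83 to 0.29 for Mmp12 over Timp1, -0.19 to 0.51 for Mmp3 over Timp1 and -0.36 to 0.23 for Adamts5 over Timp3. Without a change of sign, leaving out 1 library gave 0.16 to 0.63 for Mmp11, 0.41 to 0.97 for Mmp14, 0.29 to 0.67 for Mmp15, 0.27 to 0.62 for Adamts15, -0.41 to -0.01 for Adamts5, -1.01 to -0.35 for Adamts10, -0.86 to -0.44 for Adamts13 and -0.24 to -0.06 for Timp3, and pair differences of 0.52 to 1.33 for Mmp2 over Timp2, 0.66 to 1.41 for Adamts4 over Timp3 and -0.55 to -0.19 for Mmp9 over Timp1. The causes were not tested. Depth limits the members under 1 CPM.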
